A study of Homo sapiens with 18 samples.

Results

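The cornified envelope genes followed here are 10 genes, SPRR1A, SPRR1B, SPRR2A, SPRR2D, SPRR3, IVL, TGM1, TGM2, SERPINB2 and S100A2, out of the 58302 genes measured. They were chosen by name after the rise of SPRR1B in EBC-1 cells had been seen, so the EBC-1 values below selected the genes and are a description, with no test. RNA was sequenced from 3 lung cancer cell lines after lentiviral delivery of 1 shRNA clone against SYK, a cytoplasmic tyrosine kinase (shSYK), or of a negative control (nc). EBC-1 carries a MET amplification, and PC-9 and HCC827 each carry an EGFR exon 19 deletion. Each of the 6 groups held 3 libraries, 18 in all. With 1 clone, the loss of SYK and other effects of that clone cannot be told apart. No label says that the replicates came from separate cultures, so the p-values measure the spread between these libraries only.

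The cornified envelope is the cross-linked protein shell that replaces the plasma membrane of keratinocytes as they mature, and squamous epithelia outside the skin build parts of it too. Involucrin (IVL) and the envelope plakins form its first scaffold, and the small proline-rich proteins (SPRR) are joined to them as short bridging substrates. Transglutaminases, of which TGM1 is the keratinocyte enzyme and TGM2 the widely expressed tissue enzyme, make the cross-links between glutamine and lysine residues. SERPINB2 is plasminogen activator inhibitor 2, which is also found cross-linked into the envelope, and S100A2 is a calcium-binding protein of basal and squamous epithelial cells. The SPRR, IVL and S100 genes sit together in the epidermal differentiation complex on chromosome 1.

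In the deposited hg38 tables, IVL lies at chr1:152908545-152911886, SPRR1A at chr1:152985231-152985500, SPRR3 at chr1:153001747-153003856 and SPRR1B at chr1:153031202-153032900, all on the plus strand. SPRR2D at chr1:153039725-153041931, SPRR2A at chr1:153056113-153057537 and S100A2 at chr1:153561108-153567890 are on the minus strand. Outside the complex are TGM1 (chr14:24249114-24264432, minus strand), TGM2 (chr20:38127387-38166578, minus strand) and SERPINB2 (chr18:63871692-63903890, plus strand).

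SPRR1A and SPRR1B, and likewise SPRR2A and SPRR2D, are near-identical copies, and the coding sequences of these pairs are shown because a read that falls in a shared stretch cannot be placed in either gene by its letters. The sequences were read from hg38 with the GENCODE v44 coding positions, SPRR1A at chr1:152985231-152985500 and SPRR1B at chr1:153032346-153032615 on the plus strand, SPRR2A at chr1:153056517-153056735 and SPRR2D at chr1:153040128-153040346 on the minus strand. Capitals mark the bases that differ within each pair. SPRR1A and SPRR1B differ at 10 of 270 positions (96.3% identity) and share an unbroken run of 74 bases. SPRR2A and SPRR2D differ at 4 of 219 positions (98.17% identity) and share a run of 111 bases.
SPRR1A: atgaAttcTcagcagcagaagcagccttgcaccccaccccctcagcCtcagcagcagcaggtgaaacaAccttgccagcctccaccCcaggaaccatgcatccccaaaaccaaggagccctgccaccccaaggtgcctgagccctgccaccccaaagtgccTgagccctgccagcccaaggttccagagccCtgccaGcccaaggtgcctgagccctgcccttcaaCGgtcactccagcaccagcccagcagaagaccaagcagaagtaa
SPRR1B: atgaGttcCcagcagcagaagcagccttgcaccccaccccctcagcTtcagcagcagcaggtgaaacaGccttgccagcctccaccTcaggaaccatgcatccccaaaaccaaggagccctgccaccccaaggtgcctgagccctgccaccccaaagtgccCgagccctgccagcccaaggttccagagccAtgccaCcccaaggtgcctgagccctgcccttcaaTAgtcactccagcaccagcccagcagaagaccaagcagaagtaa
SPRR2A: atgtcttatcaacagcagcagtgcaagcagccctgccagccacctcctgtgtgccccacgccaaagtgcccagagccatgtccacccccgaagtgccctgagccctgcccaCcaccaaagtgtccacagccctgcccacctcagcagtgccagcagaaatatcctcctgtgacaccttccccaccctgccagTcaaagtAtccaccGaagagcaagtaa
SPRR2D: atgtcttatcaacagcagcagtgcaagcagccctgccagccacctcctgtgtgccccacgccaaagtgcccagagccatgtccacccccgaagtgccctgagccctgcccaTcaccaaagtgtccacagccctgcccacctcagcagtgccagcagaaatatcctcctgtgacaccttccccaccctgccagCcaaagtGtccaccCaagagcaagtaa

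The gene models of the SPRR1 pair were unequal in the deposited tables. The SPRR1A model was 270 bases long and coincided with the coding sequence, whereas GENCODE v44 places the gene from 152984081 to 152985814 with a transcript of 648 bases. The SPRR1B model was 620 bases long and covered the full transcript. SPRR1A reads were therefore counted over the coding part only, and SPRR1A values rest on few reads, 55 over the 3 nc libraries of PC-9 and 37 over those of HCC827. FPKM, the unit of the tables, is reads per kilobase of gene model and per unit of library depth, so levels of different genes are compared per length.

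The promoters of the SPRR genes called in HCC827 are shown next where the table held them, as the 250 bases before the start of the gene from RefSeq on GRCh38.p14. They are SPRR1A (chr1:152983831-152984080, plus strand), SPRR1B (chr1:153030953-153031202, plus strand) and SPRR2A (chr1:153057513-153057762, minus strand). Capitals mark matches to TGANTCA, the binding word of the AP-1 factors, which was searched on both strands. Matches began 108 bases before the start in SPRR1A, 141 and 111 bases before it in SPRR1B, and 197 bases before it in SPRR2A.
SPRR1A promoter: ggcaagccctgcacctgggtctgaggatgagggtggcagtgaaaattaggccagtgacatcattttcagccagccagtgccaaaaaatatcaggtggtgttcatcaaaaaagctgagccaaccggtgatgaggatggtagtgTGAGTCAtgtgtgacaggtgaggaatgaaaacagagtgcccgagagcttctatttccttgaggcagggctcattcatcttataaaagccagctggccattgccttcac
SPRR1B promoter: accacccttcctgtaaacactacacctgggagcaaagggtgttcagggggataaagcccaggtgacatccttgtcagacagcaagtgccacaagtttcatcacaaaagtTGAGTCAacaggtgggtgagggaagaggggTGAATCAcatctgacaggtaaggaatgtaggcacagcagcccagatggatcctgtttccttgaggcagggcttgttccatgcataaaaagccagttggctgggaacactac
SPRR2A promoter: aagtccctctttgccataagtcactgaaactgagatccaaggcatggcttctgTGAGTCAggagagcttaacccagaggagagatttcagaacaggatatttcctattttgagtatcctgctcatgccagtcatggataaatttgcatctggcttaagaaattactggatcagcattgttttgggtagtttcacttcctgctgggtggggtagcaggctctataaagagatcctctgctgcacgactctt

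The promoter table held 7 of the 10 genes and lacked SPRR2D, TGM1 and TGM2. All 7 had a match to TGANTCA, in S100A2 in 1 of its listed starts, against 6.57% of all 35116 promoters of this length. The word TATAAA, searched on both strands, was present in SPRR1A, SPRR2A, SPRR3, IVL and SERPINB2, against 10.7% of all promoters, and no match was found in SPRR1B or S100A2. These are matches of letters and were not tested as sites of binding. FOSL1, which codes for the AP-1 subunit FRA1 that the study follows, was measured at 446 to 606 FPKM in nc and 480 to 511 in shSYK libraries of EBC-1, at 27.9 to 48.3 and 38.1 to 48.3 in PC-9, and at 169 to 194 and 220 to 255 in HCC827. FOSL1 rose in HCC827 (log2 fold change 0.41, limma adjusted p = 0.00666) and did not pass the test in PC-9 (0.27, limma adjusted p = 0.592). Its part in the levels of the envelope genes was not tested.

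Between 7920099 and 15729103 reads per library lay on genes. SYK itself was lower in every shSYK library, at 7.25 to 7.63 FPKM against 13.1 to 15.1 in EBC-1 libraries, 1.64 to 2.34 against 6.04 to 7.31 in PC-9, and 2.46 to 3.36 against 8.45 to 9.74 in HCC827. The study lists EBC-1 as a squamous cell lung cancer line. Of 8 squamous markers only SOX2 reached a mean of 1 FPKM in its nc libraries, where it measured 9.32 to 10.5, and KRT5, KRT6A and KRT14 were at 0 in all 6 EBC-1 libraries. Of 7 lung adenocarcinoma markers, KRT7 (733 to 780 FPKM) and LAMP3 (1.24 to 1.64) reached that mean in EBC-1 nc, while NKX2-1, NAPSA, SFTPB, SFTPA1 and MUC1 stayed below 1 FPKM. Most defining markers of either class were thus absent or low in EBC-1. Of 6 white blood cell markers, ITGAM measured 2.71 to 3.39 FPKM in PC-9 and CD14 0.632 to 1.62 in HCC827 nc, and the defining marker PTPRC was at no more than 0.144 in any library. Of the endothelial markers, PECAM1 measured 12.7 to 14.4 FPKM and CDH5 2.16 to 2.57 in PC-9 nc.

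Some markers of several cell types moved with the knockdown, and others did not. The summed level of the 8 squamous markers went from 18.8 to 25.3 FPKM in nc to 140 to 142 in shSYK libraries of PC-9, nearly all of it KRT5, a basal keratin. In HCC827, it went from 31.0 to 40.1 to 9.46 to 15.2 FPKM, and in EBC-1 from 9.43 to 10.6 to 5.50 to 8.95 FPKM. KRT7 in EBC-1 went from 733 to 780 to 276 to 326 FPKM, and NAPSA in HCC827 from 85.7 to 88.3 to 45.4 to 50.2. PECAM1 in PC-9 went from 12.7 to 14.4 to 4.28 to 5.34. Some others of the same lists overlapped or went up. CDH5 in PC-9 measured 2.16 to 2.57 FPKM in nc and 2.28 to 2.51 in shSYK libraries. KRT7 in HCC827 measured 1224 to 1300 in nc and 1152 to 1416 in shSYK libraries. MUC1 in EBC-1 went up from 0.403 to 0.507 to 0.597 to 1.18, and DSC3 in HCC827 from 0.434 to 0.615 to 0.706 to 0.805. The part of these shifts in the levels of the envelope genes was not tested, and in bulk RNA fewer cells with a transcript and less transcript per cell cannot be told apart.

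Control levels of the envelope genes differed between the 3 cell lines. The tables were normalized separately, so these FPKM levels are set side by side with no test, and levels were called clear of each other where the libraries did not overlap. SPRR1A was highest in PC-9 (6.69 ± 0.645, SD, n = 3), lower in HCC827 (4.67 ± 0.395) and near 0 in EBC-1 (0.179 ± 0.310), each clear of the next. SPRR1B was highest in HCC827 (12.9 ± 2.28), clear of PC-9 (0.773 ± 0.310) and EBC-1 (0.359 ± 0.420), which overlapped. The SPRR2 genes were transcribed almost only in HCC827, with SPRR2A at 4.36 ± 2.15 and SPRR2D at 5.78 ± 1.99 in nc, while the 3 nc libraries of PC-9 and of EBC-1 together held 0 reads on SPRR2A. A count of 0 over a group allows up to 3 reads, and counting error is all that this limit covers.

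**Figure D1:**
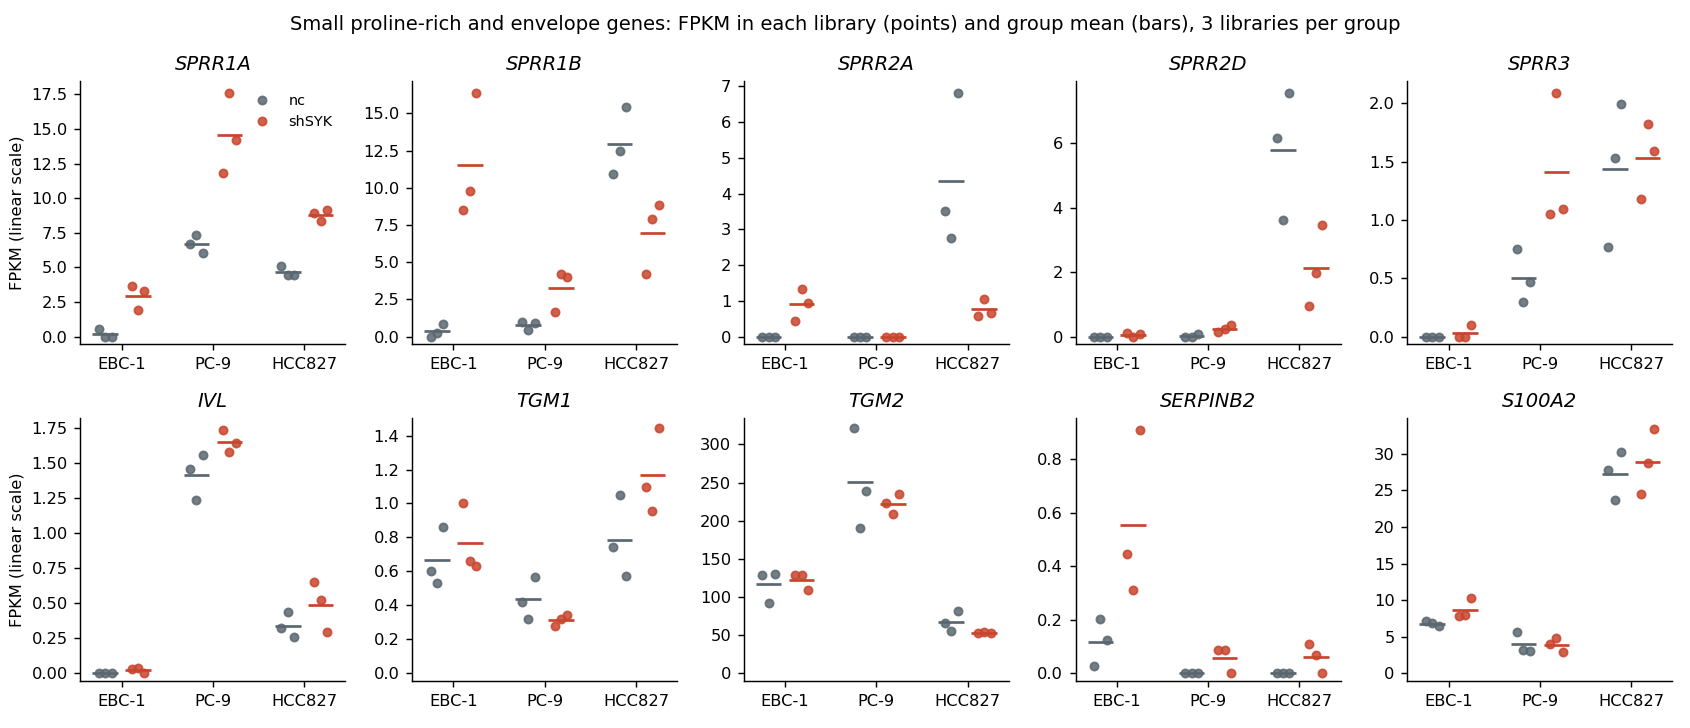
FPKM (linear y axis, a scale of its own in each panel) of the 10 cornified envelope genes in the nc (grey) and shSYK (red) libraries of EBC-1, PC-9 and HCC827. Points are libraries and bars are means of 3. SPRR1B goes up from near 0 in EBC-1 and comes down from 12.9 to 6.98 FPKM in HCC827, whereas SPRR1A is higher with shSYK in all 3 lines.

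The remaining genes followed other orders. TGM2 was by far the most abundant, at 251 ± 66.2 FPKM in PC-9, 117 ± 21.4 in EBC-1 and 67.5 ± 12.9 in HCC827, each clear of the next. S100A2 was at 27.2 ± 3.30 in HCC827, 6.80 ± 0.295 in EBC-1 and 3.94 ± 1.47 in PC-9, also clear of each other. IVL was at 1.42 ± 0.164 in PC-9 and 0.338 ± 0.0894 in HCC827, and had 0 reads in EBC-1 nc. SPRR3 was at 1.43 ± 0.621 in HCC827, 0.507 ± 0.231 in PC-9 and 0 in EBC-1. TGM1 stayed under 1.05 FPKM in every nc library, and its levels overlapped between the lines. SERPINB2 was read only in EBC-1 among the nc libraries, at 0.117 ± 0.0878 FPKM. Rescaling to an equal sum per library kept the orders of all of these genes except TGM1.

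In EBC-1, the contrast that chose the genes, the SPRR1 genes went from near absence to clear transcription with SYK knockdown. SPRR1B measured 0, 0.255 and 0.820 FPKM in the nc libraries and 8.50, 9.79 and 16.4 in the shSYK libraries, 8 reads against 295 over the group. The ratio of the read rates was 33.9 (exact 95% interval from counting 16.96 to 79.1). Such intervals pool the reads of a group and cover counting error only, without the spread between libraries. In EBC-1, whose values chose the genes, they are a description and no test. SPRR1A measured 0.537, 0 and 0 FPKM in nc and 3.63, 1.90 and 3.27 in shSYK libraries, 2 reads against 34 (ratio 15.6, interval 4.001 to 134). Every shSYK library was above every nc library for both genes.

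Among the SPRR2 genes of EBC-1, SPRR2A had 0 reads in the nc libraries and 0.432, 1.33 and 0.933 FPKM in the shSYK libraries, on 25 reads. The rate was 7.65-fold that of a floor of 3 reads over the nc group, and the counting interval of the ratio began at 5.77. SPRR2D had 0 reads in nc and 3 reads in all in shSYK. SERPINB2 measured 0.0264, 0.202 and 0.123 FPKM in nc and 0.446, 0.311 and 0.910 in shSYK libraries, 12 reads against 64 (ratio 4.90, interval 2.62 to 9.97). S100A2 measured 7.08, 6.82 and 6.49 FPKM in nc and 7.82, 7.91 and 10.3 in shSYK libraries.

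The groups of EBC-1 did not overlap for 5 of the 10 genes, all higher with shSYK, namely SPRR1A, SPRR1B, SPRR2A, SERPINB2 and S100A2. Over all genes with a read in this line, the share that was higher without overlap was 16.1%, and over genes with a mean of at least 1 FPKM it was 29.7%. Of the 4 envelope genes with that mean, SPRR1A, SPRR1B and S100A2 were apart and TGM2 was not. Both transglutaminases overlapped between the groups. TGM2 measured 129, 92.4 and 130 FPKM in nc and 129, 129 and 109 in shSYK libraries, and TGM1 measured 0.602, 0.530 and 0.863 against 1.0, 0.664 and 0.630. IVL and SPRR3 had 0 reads in nc and 2 reads each in shSYK, so no change could be read at this depth.

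In PC-9, SPRR1A rose and the other genes tested did not pass the test. SPRR1A measured 6.72, 7.33 and 6.04 FPKM in the nc libraries and 11.8, 17.6 and 14.2 in the shSYK libraries, which is 55 against 139 reads. The groups did not overlap, and SPRR1A rose 2.17-fold (log2 fold change on log2(FPKM + 1) 1.001, with a standard error (SE) of 0.150 and a limma adjusted p = 0.0244). The call was lost without nc replicate 3 or any of shSYK replicates 1, 2 and 3 (limma adjusted p 0.0714 to 0.151), with no filter on low values (0.0841), and with limma-voom, which weights log counts by their precision, on the recovered reads (0.0669).

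SPRR1B moved the same way in PC-9 and did not pass the test. It measured 0.975, 0.416 and 0.928 FPKM in nc and 1.67, 4.21 and 3.97 in shSYK libraries, 14 reads against 71. All 3 shSYK libraries were above the nc libraries (log2 fold change 1.23, SE 0.272, limma adjusted p = 0.0735). It passed without nc replicate 1 (limma adjusted p = 0.0459). It also passed in a fit of all 18 libraries (0.0147), but that fit takes its spread partly from the EBC-1 libraries, which chose the genes. SPRR3, whose mean lay under the filter, measured 0.755, 0.298 and 0.466 FPKM in nc and 1.05, 2.09 and 1.09 in shSYK libraries, 21 reads against 73. SPRR2D went from 1 read in nc to 9 in shSYK over the group (ratio 7.72, interval 1.07 to 339), and SPRR2A had 0 reads in all 6 libraries.

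Of the 10 genes, 5 passed the filter of a mean of 1 FPKM in PC-9. Of these, 1 rose and 0 fell, beside 0.678% of all 12089 genes tested that rose and 1.41% that fell. At an unadjusted p under 0.05, 1881 of all genes passed. The nc libraries of PC-9 were uneven, with sums of all FPKM of 342216, 274907 and 301347 in replicates 1, 2 and 3. A gene not called in PC-9 is therefore not shown to be unchanged. IVL, the early scaffold protein, measured 1.46, 1.24 and 1.56 FPKM in nc and 1.74, 1.58 and 1.65 in shSYK libraries, apart by a narrow gap and not past the test (log2 fold change 0.14, limma adjusted p = 0.626). TGM2 measured 322, 191 and 239 FPKM in nc and 223, 209 and 235 in shSYK libraries (-0.14, limma adjusted p = 0.801), and the spread of the nc libraries covered all shSYK libraries. S100A2 measured 5.63, 3.13 and 3.06 FPKM in nc and 4.02, 4.80 and 2.96 in shSYK libraries (0.017, SE 0.223, limma adjusted p = 0.986).

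In HCC827, SPRR1A was higher in shSYK than in nc libraries, and SPRR1B, SPRR2A and SPRR2D were lower. SPRR1A measured 5.12, 4.41 and 4.47 FPKM in nc and 8.90, 8.36 and 9.16 in shSYK libraries, 37 reads against 75. SPRR1A rose 1.89-fold (log2 fold change 0.79, SE 0.0711, limma adjusted p = 0.000367). The ratio of its read rates was 1.91 (exact interval from counting 1.27 to 2.92). Its libraries held 10 to 14 reads each in nc and 24 to 27 in shSYK, so the small SE may understate the counting error. SPRR1B measured 10.9, 12.5 and 15.4 FPKM in nc and 4.20, 7.89 and 8.86 in shSYK libraries, 243 reads against 138. It fell 1.85-fold (-0.85, SE 0.236, limma adjusted p = 0.0262). For neither gene did the groups overlap.

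Both SPRR2 genes fell in HCC827. SPRR2A measured 3.51, 2.76 and 6.81 FPKM in nc and 0.565, 1.06 and 0.646 in shSYK libraries, 93 reads against 17, a 5.76-fold fall (log2 fold change -1.55, SE 0.258, limma adjusted p = 0.00383). SPRR2D measured 6.15, 3.62 and 7.55 FPKM in nc and 0.947, 1.96 and 3.47 in shSYK libraries, 178 reads against 72, a 2.72-fold fall (-1.15, SE 0.323, limma adjusted p = 0.0266). The highest shSYK library of SPRR2D, replicate 3, came close to the lowest nc library, replicate 2.

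Of the 10 genes, 7 passed the filter in HCC827, and of these 1 rose and 3 fell. Over all 11999 genes tested, 17.2% rose and 20.7% fell, so many genes moved in this line. How the libraries are scaled shifts the balance. As deposited, 2066 genes rose and 2488 fell, whereas 2482 rose and 1905 fell after rescaling to an equal sum, and 3032 rose and 2161 fell with limma-voom. The calls of SPRR1A and SPRR2A held under every alternative in which they were tested singly (limma adjusted p up to 0.0230 and 0.0219). The highest value of SPRR1A was that of limma-voom, which weights by the precision of the counts. The call of SPRR1B was lost without nc replicate 2 or 3 (0.0578 and 0.0792) and with no filter (0.0982). The call of SPRR2D was lost without nc replicate 1 or 3 or shSYK replicate 1 or 2 (0.0614 to 0.0807) and with no filter (0.101).

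**Figure D2:**
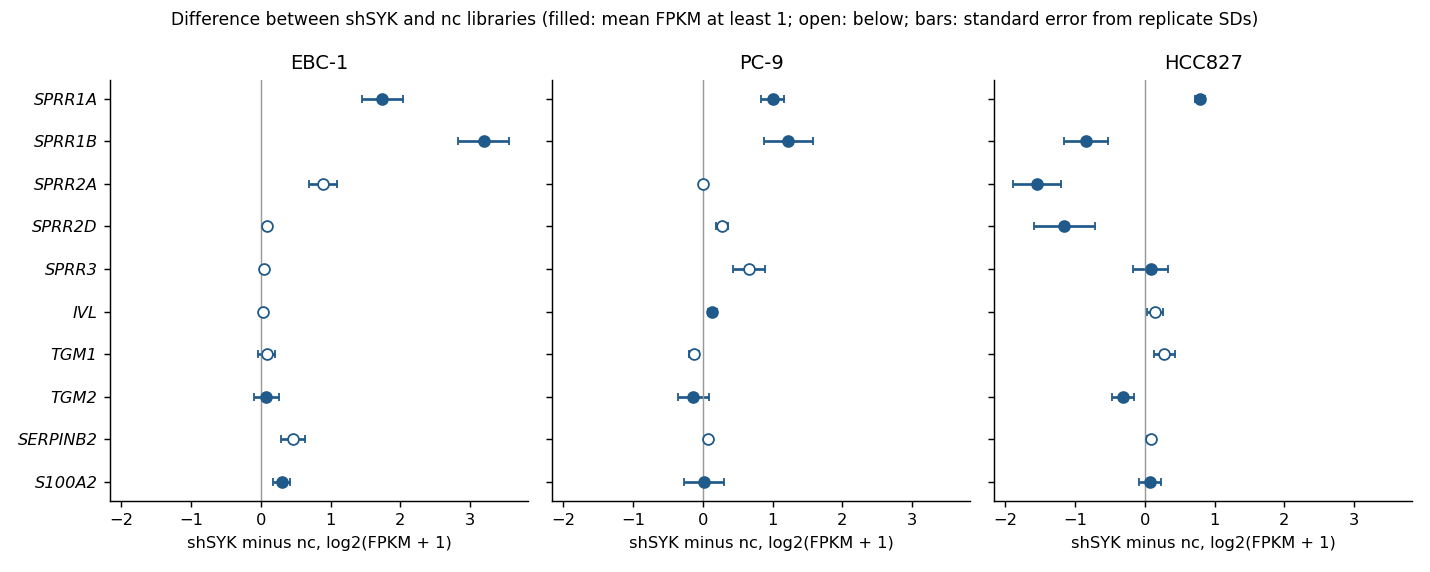
Difference between shSYK and nc libraries on log2(FPKM + 1) for the 10 genes in each cell line (x axis), with bars of 1 standard error from the replicate SDs. Filled points have a mean of at least 1 FPKM. SPRR1B lies at 3.20 (EBC-1), 1.23 (PC-9) and, below 0, -0.85 (HCC827), and SPRR1A is above 0 in all 3. The EBC-1 panel is the contrast that chose the genes.

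The enzymes and the other genes of HCC827 moved less. TGM2 measured 65.4, 55.7 and 81.3 FPKM in nc and 53.1, 53.5 and 53.3 in shSYK libraries, without overlap and not past the test (log2 fold change -0.32, SE 0.122, limma adjusted p = 0.0760). It passed without nc replicate 2 (0.0147), with a filter at 5 FPKM (0.0480) and with limma-voom (0.0218), with values between -0.45 and -0.25. TGM1 measured 0.741, 1.05 and 0.572 FPKM in nc and 1.10, 0.957 and 1.45 in shSYK libraries, overlapping. S100A2 measured 27.8, 23.7 and 30.2 FPKM in nc and 24.5, 28.8 and 33.4 in shSYK libraries (0.080, SE 0.125, limma adjusted p = 0.647). SPRR3 measured 0.768, 1.54 and 1.997 FPKM in nc and 1.18, 1.83 and 1.59 in shSYK libraries (0.083, SE 0.201, limma adjusted p = 0.771). IVL measured 0.321, 0.435 and 0.259 FPKM in nc and 0.651, 0.524 and 0.298 in shSYK libraries, and SERPINB2 had 0 reads in nc and 5 in shSYK.

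The effect of the knockdown differed between the EGFR-mutant lines for SPRR1B. The effect on this gene in HCC827 minus that in PC-9 was -2.07 on log2(FPKM + 1) (SE 0.398, limma adjusted p = 0.0107), and the call held in all alternatives that fitted the gene singly. SPRR2A was called in the same fit, but PC-9 had 0 reads in all 6 libraries and the gene passed the filter through HCC827, so its value of -1.55 is the HCC827 effect and compares no effect in PC-9. SPRR2D had only 1 read in nc and 9 in shSYK over the PC-9 groups and also passed the filter through HCC827. Its difference therefore rests mostly on HCC827 and compares hardly any measured effect in PC-9. SPRR2D differed by -1.43 and did not pass the test (limma adjusted p = 0.0543). It passed with a pseudocount of 0.1 (0.0302), with quantile normalization (0.0454), and without PC-9 nc replicate 1, HCC827 nc replicate 2 or HCC827 shSYK replicate 3 (0.0389, 0.0260 and 0.0140), over a range of 0.0140 to 0.137 in all alternatives. SPRR1A, which rose in both lines, differed by -0.21 (SE 0.172, limma adjusted p = 0.599). SPRR3, TGM2 and S100A2 differed by -0.58, -0.18 and 0.063, with limma adjusted p of 0.348, 0.770 and 0.949. Among all 12382 genes in this fit, 5.04% were called in either direction. Without HCC827 nc replicate 3, SPRR1B was the 1 envelope gene called.

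Because reads could be exchanged between the SPRR1 copies, the pair was also summed before the fit. The FPKM were added, and the gene models differ in length (270 and 620 bases), so an exchanged read still changes the sum. The sum therefore cannot decide whether reads were exchanged. The sum rose in PC-9, from 7.47 ± 0.434 to 17.8 ± 4.18 FPKM (log2 fold change 1.13, SE 0.166, limma adjusted p = 0.0221). In HCC827, it measured 17.6 ± 2.01 FPKM in nc and 15.8 ± 2.49 in shSYK libraries and did not pass the test (-0.16, SE 0.122, limma adjusted p = 0.351). The reads of the pair there were 280 in nc and 213 in shSYK. In EBC-1, it measured 0.538 ± 0.283 and 14.5 ± 4.47 FPKM, on 10 and 329 reads.

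The share of SPRR1A in the FPKM of the pair changed place in HCC827, from 22.5% to 31.9% in the nc libraries to 50.8% to 67.9% in the shSYK libraries. In reads, SPRR1A held 37 of 280 in nc and 75 of 213 in shSYK libraries of HCC827. In PC-9, SPRR1A held 86.7% to 94.6% of the pair in nc and 78.2% to 87.6% in shSYK libraries, with overlap. In the shSYK libraries of EBC-1, it held 16.3% to 29.9%. The pair was mostly SPRR1A in PC-9 and mostly SPRR1B in knocked-down EBC-1. These shares use an SPRR1A level counted over the coding part alone, and how reads that match both copies were assigned is not given in the sources used here.

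**Figure D3:**
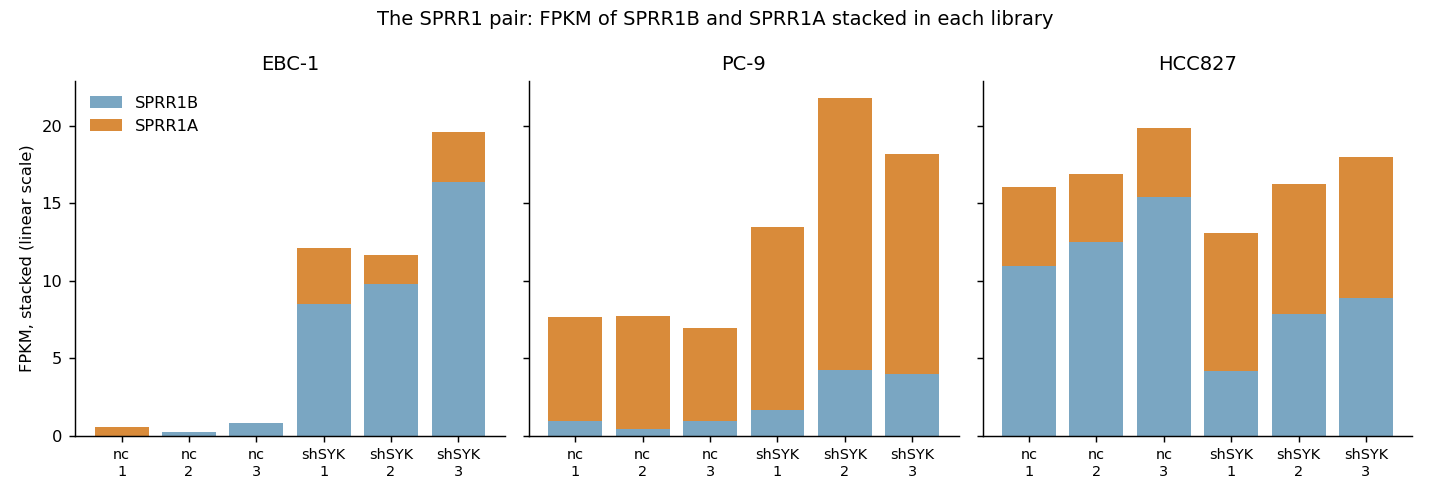
FPKM of SPRR1B (blue) and SPRR1A (orange) stacked in each of the 18 libraries (linear y axis from 0). In HCC827, the height of the stack is 16.1 to 19.9 FPKM in nc and 13.1 to 18.02 in shSYK libraries while the SPRR1A part grows. In PC-9, both parts are taller with shSYK.

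The SPRR2 genes were summed likewise. In HCC827, their sum fell from 12.6 ± 4.33 to 3.23 ± 1.63 FPKM, on 322 and 97 reads (log2 fold change -1.71, SE 0.320, limma adjusted p = 0.00566). SPRR2E and SPRR2F, which were singled out after their values were seen, lay under the filter there and were lower in every shSYK library. SPRR2E measured 1.51, 0.812 and 1.26 FPKM in nc and 0.136, 0.128 and 0.250 in shSYK libraries, and SPRR2F measured 1.42, 1.13 and 1.36 in nc and 0, 0 and 0.538 in shSYK. In EBC-1, the sum held 3 reads in nc and 32 in shSYK, and in PC-9 1 and 10. SPRR2B, SPRR2G and SPRR4 had 0 reads in all 18 libraries.

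The other genes of envelope formation were taken as 6 lists with 85 genes in all, of which 37 passed the filter in PC-9 and 35 in HCC827. In PC-9, 3 rose and 3 fell, and in HCC827, 3 rose and 20 fell, to be read beside the shares over all genes given above. Of 26 late envelope genes (loricrin, filaggrins, the LCE genes and the remaining SPRR genes), 0 passed the filter in any line, and 4 to 6 had a read in a given line, SPRR2E and SPRR2F of HCC827 among them. The median log2 fold change over all genes was between -0.0053 and 0.0090 in the 3 lines as deposited, and rescaling to an equal sum put that of EBC-1 at 0.116.

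Among scaffold and substrate genes, 8 of 12 passed the filter in each line. In HCC827, 2 rose and 4 fell (median -0.085). PI3, the elafin precursor that transglutaminase anchors in the envelope, fell from 4.84 ± 0.696 to 0.653 ± 0.316 FPKM (log2 fold change -1.83, limma adjusted p = 0.000283). PPL, the plakin periplakin, fell from 12.3 ± 0.307 to 8.60 ± 0.458 (-0.48, limma adjusted p = 0.00115). CNFN, cornifelin, rose from 1.81 ± 0.198 to 3.11 ± 0.535 (0.54, limma adjusted p = 0.00969), and limma-voom lost this call (0.0893). In PC-9, PPL was the 1 gene called and fell from 34.6 ± 1.60 to 20.04 ± 0.608 FPKM (-0.76, limma adjusted p = 0.0132, median of the list -0.29). In EBC-1, PI3 measured 14.2 ± 2.83 FPKM in nc and 48.5 ± 0.967 in shSYK, and ANXA1, annexin A1, 94.3 ± 25.0 and 215 ± 19.1.

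Of the 6 other transglutaminases, only TGM5 passed the filter, in PC-9. It rose there from 2.83 ± 0.466 to 8.17 ± 0.399 FPKM (log2 fold change 1.26, limma adjusted p = 0.00523). The clade B serpins, the family of SERPINB2, had 0 rises and 3 falls among 6 genes in HCC827 (median -0.45). SERPINB4 fell from 8.32 ± 1.07 to 1.59 ± 0.834 FPKM (-1.89, limma adjusted p = 0.000705) and its near copy SERPINB3 from 5.12 ± 0.255 to 1.34 ± 0.426 (-1.40, limma adjusted p = 0.000444). Both are squamous cell carcinoma antigens. SERPINB1, an inhibitor of neutrophil proteases, fell there from 65.7 ± 5.67 to 42.0 ± 3.00 FPKM (-0.63, limma adjusted p = 0.00125). It rose in PC-9, from 35.4 ± 0.896 to 64.7 ± 4.504 (0.85, limma adjusted p = 0.0132), as the 1 gene called of 4. In EBC-1, SERPINB4 measured 0.0381 ± 0.0362 FPKM in nc and 3.00 ± 0.394 in shSYK, and SERPINB7 0.874 ± 0.364 and 4.66 ± 0.449.

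**Figure D4:**
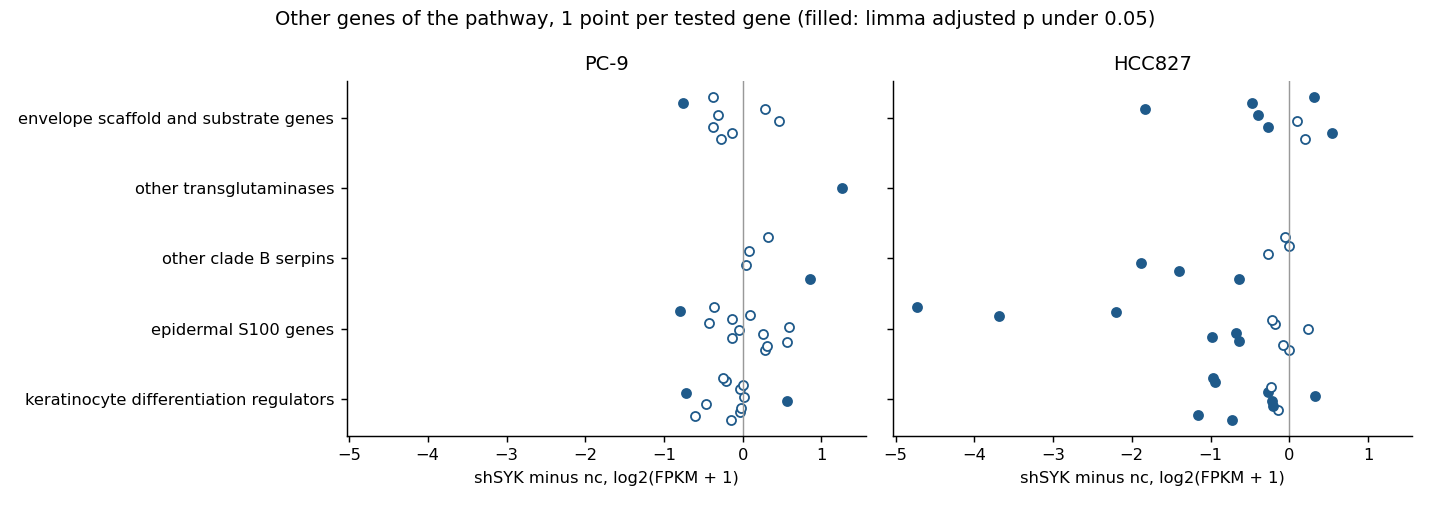
Log2 fold change on log2(FPKM + 1) (x axis) of the tested genes of 5 lists in PC-9 and HCC827, 1 point per gene, filled where the limma adjusted p was under 0.05. Points are spread vertically for legibility. In HCC827, the S100 genes reach -4.73 and 20 of 35 genes fell, and in PC-9 most points are open.

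The list of other epidermal S100 genes showed 0 rises and 6 falls among 11 genes tested in HCC827 (median -0.64). S100A9, a subunit of calprotectin, fell from 374 ± 77.3 to 14.5 ± 7.55 FPKM (log2 fold change -4.73, limma adjusted p = 0.000255). Its partner S100A8 fell from 4.12 ± 1.35 to 0.0918 ± 0.0910 (-2.20, limma adjusted p = 0.000275). S100A7, psoriasin, fell from 12.2 ± 3.46 FPKM to 0 in all 3 shSYK libraries (limma adjusted p = 6.17e-05). In PC-9, S100A8 was the 1 gene called of 12 and fell from 75.4 ± 4.16 to 43.2 ± 5.44 (-0.80, limma adjusted p = 0.0283), a call lost with no filter (0.0755). In EBC-1, S100A8 measured 1.33 ± 0.171 and 12.1 ± 1.02 FPKM, and S100A9 120 ± 10.9 and 334 ± 11.2.

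Regulators of keratinocyte differentiation passed the filter for 12 of 16 genes in PC-9 and 10 in HCC827. In HCC827, 1 rose and 7 fell (median -0.25). ELF3, an epithelial ETS factor, fell from 62.9 ± 8.70 to 27.5 ± 1.99 FPKM (log2 fold change -1.16, limma adjusted p = 0.000347). OVOL1, a zinc finger repressor, fell from 3.99 ± 0.258 to 1.56 ± 0.136 (-0.96, limma adjusted p = 0.000275) and the receptor NOTCH3 from 14.2 ± 0.697 to 6.91 ± 0.230 (-0.95, limma adjusted p = 0.000112). In PC-9, KLF5 fell from 23.4 ± 1.34 to 13.8 ± 0.562 (-0.72, limma adjusted p = 0.0161). In EBC-1, ELF3 measured 32.1 ± 2.10 FPKM in nc and 13.2 ± 1.62 in shSYK, and NOTCH3 5.13 ± 0.515 and 1.75 ± 0.288.

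All 6 calls of these lists in PC-9 were sensitive to single libraries. Their count was 1 without nc replicate 3 or shSYK replicate 3 and 0 without shSYK replicate 1 or 2.

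The genes most like SPRR1B in pattern were sought over all 18 libraries, on log2(FPKM + 1) with the nc mean of the same line subtracted, among 12666 other genes with a mean of at least 1 FPKM. The highest Pearson correlations were those of IK (r = 0.976), GTF3C6 (0.962), RPS13 (0.957), PPA1 (0.956) and RALB (0.951). The choice by likeness fixes that they share its directions. The differences were much smaller than those of SPRR1B. IK, for one, differed by 0.35, 0.15 and -0.12 in EBC-1, PC-9 and HCC827, where SPRR1B differed by 3.20, 1.23 and -0.85. The 18 points share 3 backgrounds and 6 groups, and the EBC-1 rise that chose the genes weighs on the ranking, so the correlations describe the group pattern.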

How the data were processed

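RNA extracted with TRIzol was sequenced on an Illumina HiSeq system. The authors deposited FPKM per gene for 58302 Ensembl genes in a table per cell line. The submitters' processing notes name CASAVA and HISAT2 without versions, the study states hg38, and the counting program and the annotation release are not given in the sources used here. The gene_length column of the deposited tables holds gene model lengths in bases. FPKM times length gave whole reads for 100% of values (largest deviation 3.04e-05), so reads per gene were recovered. They served for depth, exact intervals from counting (95%) and limma-voom.

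Libraries were grouped by their labels. shSYK was compared with nc within a line with limma 3.58.1 (R 4.3.3), taking log2(FPKM + 1), with a variance trend, over genes with a mean of at least 1 FPKM, and called at a Benjamini-Hochberg adjusted p under 0.05. The difference between HCC827 and PC-9 was an interaction contrast over their 12 libraries. The fits of PC-9 and HCC827 were also run on simulated log2 values. Changes were put only into genes above a set nc level, so genes lower than that in nc were not covered. The genes, lists and tests were chosen with earlier results of these data known. All 10 genes are named, with up to 3 called genes per list and line, and in EBC-1 up to 2 per list with the largest difference, except for 1 result left out here. Alternatives were TPM (FPKM rescaled to an equal sum), a filter at 5 FPKM or none, a pseudocount of 0.1, quantile normalization, no variance trend, all 18 libraries in 1 fit, a replicate block, limma-voom, summed copies and each library left out. For control levels, TPM was added after seeing the data. Figures were drawn with matplotlib 3.10.9.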

Additional observations from a re-analysis of the deposited data

Results flagged for a closer look

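The effect of SYK knockdown on SPRR1B differed between HCC827 and PC-9 by -2.07 on log2(FPKM + 1), by the test of the difference itself (limma adjusted p = 0.0107). All shSYK libraries lay above the nc libraries in EBC-1 and below them in HCC827 for SPRR1B and SPRR2A. The effect in HCC827 minus that in EBC-1 was -4.05 for SPRR1B and -2.44 for SPRR2A, and these differences were not tested, since the EBC-1 values chose the genes.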

How the results depend on the processing

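Among the envelope genes, the number called in PC-9 (1) was 0 with no filter and with limma-voom and 2 in the fit of all 18 libraries. That fit includes the EBC-1 libraries, which chose the genes. The number in PC-9 ran from 0 to 2 when each library was left out. The number called in HCC827 (4) was 2 with no filter, 3 with a filter at 5 FPKM and 5 with limma-voom, and ran from 2 to 4 with each library left out. With copies summed, the number was 1. There each set of copies counted as 1 sum, and the SPRR1 sum was not called (limma adjusted p = 0.351). For the difference between these lines (2, counting SPRR2A with 0 reads in PC-9), it was 1 with a filter at 5 FPKM, which removed SPRR2A, and 1 with limma-voom, and ran from 1 to 3 with libraries left out. In EBC-1, 3 genes over the filter were apart, and 5 with no filter. The genes of the 6 lists called in PC-9 (6) were 10 with TPM, with the fit of all 18 libraries and with limma-voom, and ran from 0 to 8 with libraries left out. Except where a construction is named, the cause was not tested.

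Values that changed sign were near 0 and not called. With TPM, S100A2 in PC-9 was -0.0020. With libraries left out, S100A2 ran from -0.11 to 0.25 in PC-9 and from -0.027 to 0.19 in HCC827, TGM2 in PC-9 from -0.32 to 0.056, TGM2 in EBC-1 from -0.081 to 0.16, and SPRR3 in HCC827 from -0.13 to 0.25. In the difference between the lines, TGM2 ran from -0.37 to 0.0014 and S100A2 from -0.17 to 0.19. In EBC-1, SPRR1B was 5.13 with a pseudocount of 0.1 and 5.58 with limma-voom, and SPRR1A 3.98 and 3.67. Of the 233 values of single envelope genes under an alternative, 199 were counted as unchanged, in direction and, where tested, in side of the threshold. The 233 include values of EBC-1, which chose the genes and was not tested, and 4 of these moved in size. Direction and side of the threshold held for 127 of 139 values of the difference between lines and 255 of 282 of the listed genes named.

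The replicate numbers did not pair the libraries in a steady way (correlations of deviations between same-numbered libraries from -0.219 to 0.325). The highest was that of replicate 2 of PC-9, which was closest to its own number, as were replicates 2 and 3 of HCC827. With a replicate block, 1 envelope gene was called in PC-9, 4 in HCC827 and 3 in the difference between lines, and 4 and 21 listed genes in PC-9 and HCC827. The block put SPRR2D, which had few reads in PC-9, in the difference between lines at a limma adjusted p of 0.0409. It put S100A8 in PC-9 at 0.0542. Genes on few reads, such as SPRR1A, SPRR2A and SERPINB2, are limited by counting error.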
